A study of Mus musculus with 5 samples.

Results

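Uncoupling proteins carry protons or other ions across the inner membrane of mitochondria, and thermogenic regulators are the factors and enzymes that prepare a fat cell to make heat. The 8 genes described here are Ucp1, Ucp2 and Ucp3, the coactivators Ppargc1a and Ppargc1b, the transcriptional regulator Prdm16, the deiodinase Dio2 and the fatty acid elongase Elovl3. They were taken by name from the 78334 genes of the count table, and all 8 were present. Their levels were read in 5 RNA-seq libraries labelled as visceral fat of male C57BL/6 mice.

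Control 1 came from an animal on standard chow with vehicle. Diabetes 1 and diabetes 2 came from animals given streptozotocin, which kills pancreatic beta cells, into the peritoneum at 70 mg/kg when 2 days old. From 3 weeks of age these were fed for 8 weeks a diet in which fat supplied 60% of the energy, and they received vehicle. Curcumin-treated 1 and curcumin-treated 2 had the same streptozotocin and diet, plus curcumin, a turmeric polyphenol, by gavage at 50 mg/kg, once daily over 28 days starting at 11 weeks. The model is chemical and dietary, with no transgene, and the labels name no particular visceral depot. The control has no replicate, and no label states whether 2 libraries with the same treatment are from different animals, so each p-value below measures only the spread between libraries, which may be technical.

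In brown and beige fat, noradrenaline acts through beta-adrenergic receptors and cyclic AMP to switch on Ucp1, whose protein lets protons leak back into the matrix so that fuel is burned as heat. Prdm16 and the Ppargc1 coactivators drive the brown fat and mitochondrial gene programmes, Dio2 makes active thyroid hormone inside the cell, and Elovl3 lengthens fatty acids in cold-exposed brown fat. Ucp2 and Ucp3 are relatives of Ucp1 that are not required for classical heat production. Ucp2 is found in many tissues and in immune cells, and Ucp3 mainly in skeletal muscle and brown fat. Visceral white fat of mice normally makes little Ucp1.

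The stretches around the transcription starts of 5 of the genes are shown because Ucp2 and Ucp3 are direct neighbours with very different levels, Ucp2 and Ppargc1a shared their order across the treatment groups, and Ucp1 and Dio2 are classical targets of cyclic AMP. Each runs 5′ to 3′ on the gene's own strand from 250 bases before to 50 bases after the start, from RefSeq on build GRCm38.p6, an older build than the GRCm39 of the counts. Capitals mark matches, on either strand, to the short motifs named below.
Ucp1: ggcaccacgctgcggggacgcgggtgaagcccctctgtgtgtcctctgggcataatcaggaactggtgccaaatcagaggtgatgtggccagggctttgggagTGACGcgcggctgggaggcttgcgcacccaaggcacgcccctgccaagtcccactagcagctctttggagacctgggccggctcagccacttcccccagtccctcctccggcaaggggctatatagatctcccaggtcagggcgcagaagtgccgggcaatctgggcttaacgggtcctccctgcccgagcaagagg
Ucp2: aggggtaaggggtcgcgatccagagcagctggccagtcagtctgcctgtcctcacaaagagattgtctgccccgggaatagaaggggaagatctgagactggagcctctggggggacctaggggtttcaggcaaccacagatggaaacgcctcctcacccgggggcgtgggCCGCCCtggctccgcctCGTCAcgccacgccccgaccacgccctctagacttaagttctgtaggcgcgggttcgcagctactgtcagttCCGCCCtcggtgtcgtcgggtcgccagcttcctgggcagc
Ucp3: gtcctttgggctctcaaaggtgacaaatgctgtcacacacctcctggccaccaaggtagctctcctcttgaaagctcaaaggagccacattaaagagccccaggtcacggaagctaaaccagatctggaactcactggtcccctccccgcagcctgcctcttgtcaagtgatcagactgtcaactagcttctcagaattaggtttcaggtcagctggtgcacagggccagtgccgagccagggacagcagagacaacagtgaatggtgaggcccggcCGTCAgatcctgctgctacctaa
Ppargc1a: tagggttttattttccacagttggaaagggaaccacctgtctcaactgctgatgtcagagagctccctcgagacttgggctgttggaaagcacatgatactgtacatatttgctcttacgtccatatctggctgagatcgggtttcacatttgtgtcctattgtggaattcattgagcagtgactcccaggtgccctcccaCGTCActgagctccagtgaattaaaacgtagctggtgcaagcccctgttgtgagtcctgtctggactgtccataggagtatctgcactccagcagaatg
Dio2: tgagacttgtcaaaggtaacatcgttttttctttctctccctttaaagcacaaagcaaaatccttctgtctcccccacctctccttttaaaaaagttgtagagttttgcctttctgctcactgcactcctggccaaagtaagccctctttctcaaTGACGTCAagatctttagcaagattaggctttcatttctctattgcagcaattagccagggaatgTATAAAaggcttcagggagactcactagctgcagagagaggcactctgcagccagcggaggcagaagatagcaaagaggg

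These windows are chr8:83290098-83290397 on the plus strand for Ucp1, chr7:100493108-100493407 plus for Ucp2, chr7:100472741-100473040 plus for Ucp3, chr5:51567676-51567975 minus for Ppargc1a and chr12:90738989-90739288 minus for Dio2. RefSeq windows were matched for 6 of the 8 genes. The cyclic AMP response element core TGACG stood in each of the 5 windows, and 20.8% of 32851 RefSeq promoter windows of this length hold it. The palindrome TGACGTCA, which contains that core on both strands, was found only in Dio2 among the 6 windows, against 1.79% of all windows. It begins at position -95, counting the first transcribed base as 1 and the base before it as -1. Dio2 also held TATAAA at -30, found in 13.6% of windows. Ucp2 held GGGCGG, the GC box, at -79 and at 11, and 35.7% of windows hold it. The Ucp1 and Ucp2 windows were rich in G and C (64.7% and 64.3%, with 15 and 21 CpG pairs), while Ucp3 had 55.0% and 5 CpG pairs, Ppargc1a 48.7% and 5, and Dio2 44.7% and 3. The median over all windows was 52.7% and 7 CpG pairs. In Prdm16 the window held GGGCGG at -220, CCAAT (in 37.4% of windows) at -98 and no TGACG. These are letter matches and were not tested for binding, and the well-known Ucp1 enhancer lies upstream of the stretch shown.

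Total counts ran from 25378046 to 42422890 per library, and levels below are read counts scaled to the library total (CPM). A count of 0 allows up to 3 counts, which is 0.118 CPM in diabetes 2 but 0.0707 CPM in curcumin-treated 2. Such limits and the exact Poisson 95% intervals cover counting error only, as the reads carry no molecular identifiers. Where 5 values are given without names, their order is control 1, diabetes 1, diabetes 2, curcumin-treated 1, curcumin-treated 2. The tissue label was checked against 12 adipocyte genes: their summed share of counts was 2.64% (95% Wilson interval 2.63% to 2.64%) in diabetes 2 and 0.361% (0.359% to 0.364%) in curcumin-treated 1. It was 0.0526% (0.0517% to 0.0535%) in control 1, 0.0181% (0.0177% to 0.0185%) in curcumin-treated 2 and 0.01395% (0.0135% to 0.0144%) in diabetes 1. Adipoq, the defining adipocyte hormone, ranged from 1.34 CPM in diabetes 1 to 1610 CPM in diabetes 2, and Retn and Aqp7 were at 0 in diabetes 1. Pnpla2 alone made up 53.6% of the adipocyte marker counts in diabetes 1 and 35.7% in curcumin-treated 2. Fabp4 led in the other libraries, with 22.7% to 32.7%. Ratios to these marker counts therefore lean on Pnpla2 in diabetes 1 and curcumin-treated 2. A list of 12 genes of the epididymal epithelium, the duct beside gonadal fat, took 4.36% to 5.91% of counts in control 1, diabetes 1 and curcumin-treated 2. It took 0.666% (0.663% to 0.669%) in curcumin-treated 1, of which 89.5% was Crisp1, and 8 counts in all, with 9 of the 12 genes at 0, in diabetes 2. Smooth muscle genes (10) took 4.48% (4.47% to 4.48%) of curcumin-treated 1 and 0.109% to 0.25% of the other libraries. Both diabetic libraries thus carry 1 label but stand far apart in these markers, as do both curcumin-treated libraries, and fewer cells of a type cannot be told apart from less RNA per cell in bulk tissue.

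Ucp2 was by far the most abundant of the 8 transcripts. Per kilobase of exon its mean level over the 5 libraries was 77.1 CPM ± 31.5 (SD, n = 5). Prdm16 followed at 1.39 ± 0.721 CPM per kilobase, then Ucp3 at 0.754 ± 1.35, Ppargc1a at 0.631 ± 0.397 and Ppargc1b at 0.456 ± 0.279. Elovl3 at 0.176 ± 0.338, Ucp1 at 0.161 ± 0.144 and Dio2 at 0.084 ± 0.0728 CPM per kilobase were lowest. Apart from Ucp2 over Prdm16, each neighbouring pair in this order differed by less than the larger SD of the pair. These lengths join all annotated exons of a gene, so an unused long exon lowers its value.

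**Figure D1:**
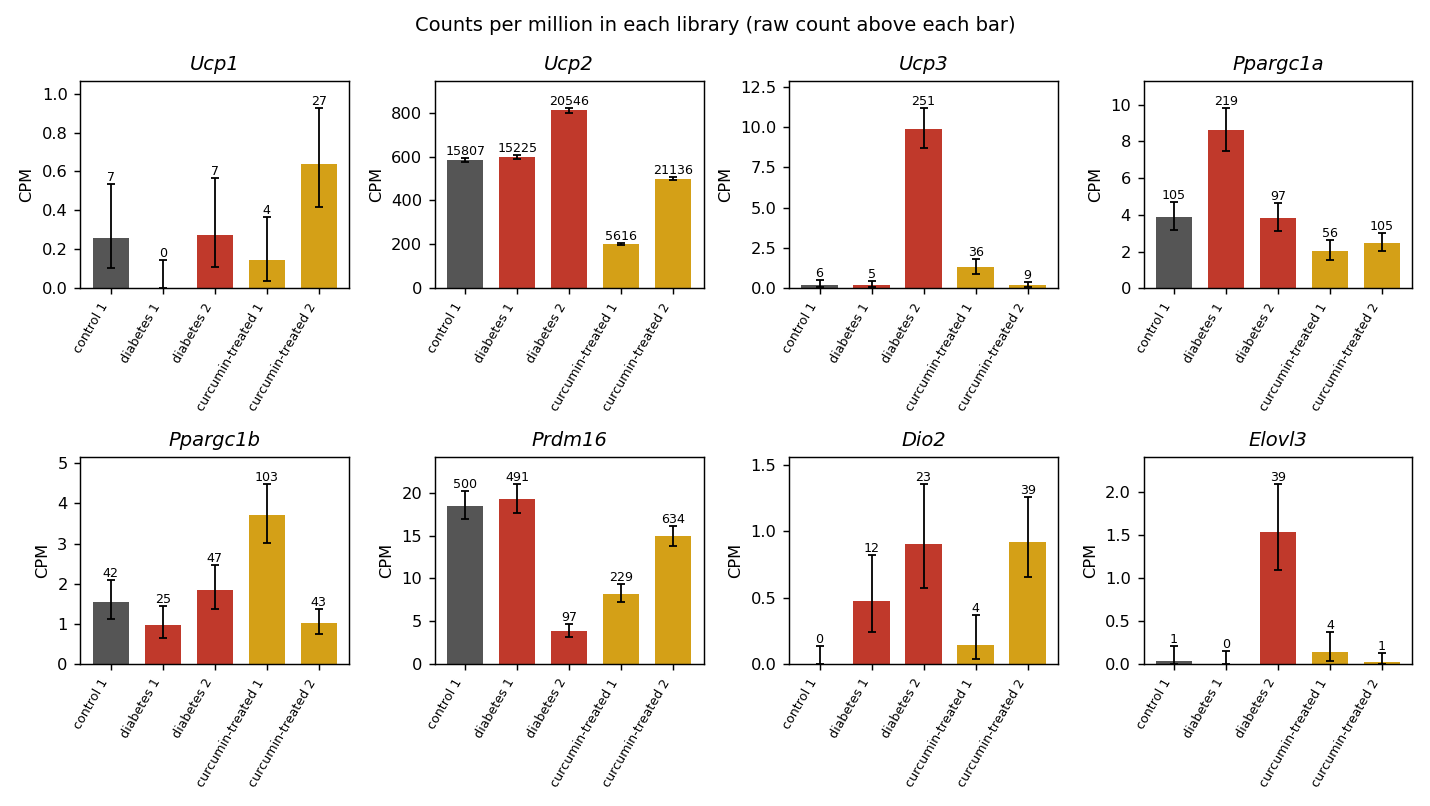
CPM of each of the 8 genes in each library, as bars in a panel per gene with its own linear axis. Error bars are exact Poisson 95% intervals, and the raw count stands above each bar. Ucp2 lies between 202 and 809.6 CPM in every library, while Ucp1, Dio2 and Elovl3 stay under 2 CPM throughout.

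Ucp1, the uncoupling protein of brown fat, was close to the limit of detection. Its counts were 7, 0, 7, 4 and 27. As CPM these are 0.259, 0, 0.276, 0.144 and 0.636, so curcumin-treated 2 was highest and the groups overlapped. Its fitted log2 fold change in curcumin-treated against diabetic libraries was 1.49 (SE 2.09, edgeR adjusted p = 0.915). It was 0.47 without diabetes 1 and 2.21 without curcumin-treated 1. Without diabetes 2 it was 6.72, a value that depends on the prior count because diabetes 1 had 0 counts, and without curcumin-treated 2 Ucp1 did not pass the low-count filter. Against control 1 the value was −0.68 (SE 2.53) in diabetes, 0.32 without diabetes 1, and 0.80 (SE 2.49) with curcumin, both full comparisons at edgeR adjusted p = 1. Diabetes 2, whose adipocyte share was the highest, had no more Ucp1 counts than control 1. Per 100000 counts of adipocyte markers, a ratio chosen after values were seen, Ucp1 stood at 1.05 (95% interval 0.42 to 2.15) in diabetes 2 and 351.1 (231.4 to 510.8) in curcumin-treated 2. In neither library can these counts be assigned to a cell type.

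Ucp2, the widely expressed uncoupling protein, had 585 CPM in control 1, 598 and 809.6 CPM in the diabetic libraries, and 202 and 498 CPM in the treated ones. Diabetes 2 was highest and curcumin-treated 1 lowest, 4.01-fold apart. Both curcumin-treated libraries were below both diabetic libraries, with means of 350.1 ± 209.5 and 703.9 ± 149.5 CPM (SD, n = 2 each). The fitted log2 fold change was −0.99 (SE 0.76, edgeR adjusted p = 0.852), so the order did not exceed the spread between libraries. Without curcumin-treated 1 the log2 difference was −0.42 and without curcumin-treated 2 it was −1.95, while it was −0.63 without diabetes 2 and −1.27 without diabetes 1. Against control 1, Ucp2 differed by 0.43 (SE 0.94) in diabetes and −0.56 (SE 0.91) with curcumin, both at edgeR adjusted p = 1. The diabetes value against control was 0.07 without diabetes 2 and 0.71 without diabetes 1. The curcumin value was 0.01 without curcumin-treated 1 and −1.52 without curcumin-treated 2.

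Macrophages also express Ucp2, and the 12 macrophage genes took 0.299% of counts (0.297% to 0.301%) in diabetes 2 and 0.0564% (0.0556% to 0.0573%) in curcumin-treated 1, against 0.017% to 0.0383% in the other libraries. Adgre1, the macrophage surface marker, had 7.03, 6.52, 230.2, 15.1 and 4.36 CPM. Ucp2 and the macrophage list were thus both highest in diabetes 2, while the lowest Ucp2 level, in curcumin-treated 1, was in the library with the next highest macrophage share. The part of macrophages in the Ucp2 levels was not tested. On the opposite strand Dnajb13 shares 305 of the 6989 exon bases of Ucp2 and had 50 to 555 counts, against 5616 to 21136 for Ucp2.

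Ucp3, the uncoupling protein of muscle and brown fat, was highest in the libraries with the largest adipocyte shares. Its counts were 6, 5, 251, 36 and 9. The levels were 0.222, 0.196, 9.89, 1.29 and 0.212 CPM, a 50.3-fold range in which diabetes 2 stood alone at the top and curcumin-treated 1 came next. The diabetic mean was 5.04 ± 6.86 CPM and the curcumin-treated mean 0.753 ± 0.765 CPM (SD, n = 2 each), and the groups overlapped. Curcumin-treated minus diabetic was −2.92 on the log2 scale (SE 1.95, edgeR adjusted p = 0.852), 1.92 without diabetes 2 and −4.55 without curcumin-treated 1. Diabetes minus control was 4.72 (SE 2.94, edgeR adjusted p = 1) and −0.13 without diabetes 2. Curcumin-treated minus control was 1.80 (SE 2.57, edgeR adjusted p = 1) with 0.17 without curcumin-treated 1 and 2.53 without curcumin-treated 2.

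Per 100000 adipocyte marker counts, the ratio chosen after values were seen, Ucp3 had 42.2 counts (95% interval 15.5 to 91.9) in control 1, 37.5 (33.0 to 42.4) in diabetes 2 and 35.8 (25.1 to 49.6) in curcumin-treated 1. Diabetes 1 had 141 (45.7 to 329) and curcumin-treated 2 had 117 (53.5 to 222), each from fewer than 10 counts. The intervals of control 1, diabetes 2 and curcumin-treated 1 overlap one another, while those of diabetes 1 and curcumin-treated 2 lie wholly above that of diabetes 2. Skeletal muscle, the other main site of Ucp3, had its highest 12-gene share in curcumin-treated 1 (0.163%) and only 0.00485% in diabetes 2, where Ucp3 was highest. Acta1, the actin of skeletal muscle, had 1069 CPM in curcumin-treated 1 and 38.0 CPM in diabetes 2. It alone made up 65.6% of the list's counts in curcumin-treated 1, the library rich in smooth muscle genes. Ckm, Tnnt3 and Casq1 were also highest there. Myh1, Myh2, Myh4, Ttn, Tnni2 and Myod1 were highest in curcumin-treated 2, Mylpf in control 1 and Myh7 in diabetes 1, so the list did not move as a whole. The part of adipocytes or muscle in the Ucp3 levels was not tested.

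Ucp2 and Ucp3 lie side by side with no annotated gene between them, yet their ratio per kilobase of exon was 1182 (exact 95% interval for both counts, 543 to 3221) in control 1, 1366 (585 to 4207) in diabetes 1 and 1053 (555 to 2304) in curcumin-treated 2. It was 36.7 (32.4 to 41.8) in diabetes 2 and 70.0 (50.5 to 100) in curcumin-treated 1. The ratio was therefore lowest in the libraries with the largest adipocyte shares. Of all counts on the 3 uncoupling proteins, Ucp2 held 98.76% (95% Wilson interval 98.6% to 98.9%) in diabetes 2 and 99.29% to 99.97% elsewhere.

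**Figure D2:**
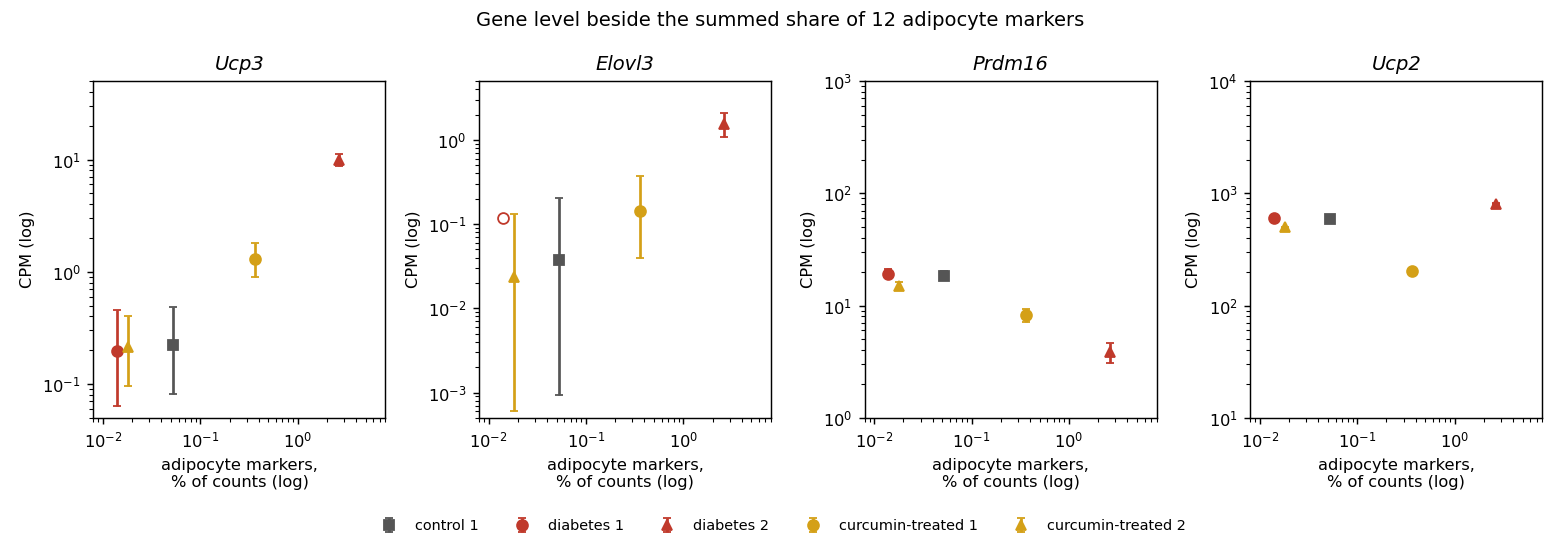
CPM (log axis) of Ucp3, Elovl3, Prdm16 and Ucp2 against the summed share of 12 adipocyte markers (percent of counts, log axis), 1 point per library with exact Poisson 95% intervals as bars, and a hollow symbol at the 3-count limit for a count of 0. Ucp3 and Elovl3 are highest, and Prdm16 lowest, in diabetes 2 at the right of each panel, while Ucp2 is lowest in curcumin-treated 1.

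The other mitochondrial carriers related to the uncoupling proteins (7 genes) were called in neither direction in any comparison. Slc25a4 and Slc25a5, the ADP/ATP carriers that can also leak protons, and Slc25a10, the dicarboxylate carrier, were the most abundant. Slc25a4 had 170.5, 151.5, 256, 554 and 174 CPM and was highest in curcumin-treated 1. Slc25a10 had 171, 101, 436, 143 and 135 CPM and Slc25a5 119, 117, 245, 164 and 78.9 CPM, both highest in diabetes 2. In curcumin-treated against diabetic libraries, 3 of the 7 were fitted higher and 4 lower, with a median log2 fold change of −0.513, beside 0.0518 over all 29855 genes tested.

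Ppargc1a, the coactivator that drives mitochondrial biogenesis and is induced by cyclic AMP, was highest in diabetes 1. Its counts were 105, 219, 97, 56 and 105, and its levels 3.88, 8.60, 3.82, 2.01 and 2.48 CPM. Both curcumin-treated libraries (2.24 ± 0.327 CPM, SD, n = 2) were below both diabetic libraries (6.21 ± 3.38 CPM) and below control 1. The log2 fold change of curcumin-treated against diabetic libraries was −1.42 (SE 0.86, edgeR adjusted p = 0.852), so the difference did not pass the test. Leaving out a library could not turn this sign, because both curcumin-treated libraries lay below both diabetic ones. The value ran from −1.83 without diabetes 2 to −0.86 without diabetes 1. Against control 1 the value was 0.79 (SE 1.06) in diabetes, 0.21 without diabetes 1 and 1.19 without diabetes 2, and −0.64 (SE 1.01) with curcumin, both at edgeR adjusted p = 1.

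Ppargc1b, the second coactivator of this family, was highest where Ppargc1a was lowest. It had 42, 25, 47, 103 and 43 counts, or 1.55, 0.982, 1.85, 3.70 and 1.01 CPM, and the groups overlapped. Curcumin-treated 1 was highest and diabetes 1 lowest. The log2 fold change between curcumin-treated and diabetic libraries was 0.63 (SE 1.13, edgeR adjusted p = 0.933), with −0.42 without curcumin-treated 1, 0.18 without diabetes 1 and 1.29 without diabetes 2. Against control 1 it was 0.04 (SE 1.39) in diabetes, −0.62 without diabetes 2, and 0.68 (SE 1.41) with curcumin, −0.38 without curcumin-treated 1, with edgeR adjusted p = 1 for both full comparisons.

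Per kilobase of exon the Ppargc1a to Ppargc1b ratio was 1.51 (exact 95% interval for both counts, 1.05 to 2.22) in control 1, 1.25 (0.873 to 1.81) in diabetes 2 and 1.48 (1.03 to 2.16) in curcumin-treated 2. It was 5.30 (3.50 to 8.37) in diabetes 1 and 0.329 (0.233 to 0.46) in curcumin-treated 1. Thus 1 diabetic and 1 curcumin-treated library stood outside the counting intervals of the other libraries, in opposite directions. Their partners with the same treatment did not.

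Prdm16, a determinant of brown fat identity that is also made in other tissues, was lowest in diabetes 2, where Ucp3 was highest. Its counts were 500, 491, 97, 229 and 634, or 18.5, 19.3, 3.82, 8.23 and 14.9 CPM. Diabetes 1 was highest, 5.05-fold above diabetes 2 within 1 group, and the curcumin-treated libraries lay between them. The group means were 11.6 ± 10.9 CPM in diabetes and 11.6 ± 4.75 CPM with curcumin (SD, n = 2 each). The log2 fold change between them was 0.10 (SE 0.89, edgeR adjusted p = 0.99), with −0.61 without diabetes 2, −0.55 without curcumin-treated 2, 1.53 without diabetes 1 and 0.53 without curcumin-treated 1.

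The 3 libraries with Prdm16 above 14 CPM are the ones in which epididymal epithelium genes took at least 4.36% of counts, and the lowest level was in diabetes 2, where that list had 8 counts. The part of that epithelium in the Prdm16 level was not tested. Against control 1, Prdm16 differed by −0.60 (SE 1.07) in diabetes and −0.50 (SE 1.07) with curcumin on the log2 scale, both at edgeR adjusted p = 1. Without diabetes 2 the first was 0.10 and without diabetes 1 it was −2.04. The second was −0.07 without curcumin-treated 1 and −1.15 without curcumin-treated 2. B230104I21Rik, on the opposite strand, shares 109 of the 9321 exon bases and had at most 14 counts.

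Genes that control transcription of the thermogenic programme (22, all tested) were called in neither direction. Curcumin-treated against diabetic libraries, 11 were fitted higher and 11 lower, with a median log2 fold change of −0.0553. Ctbp1, a corepressor that binds Prdm16, had 185, 147, 105, 204 and 195 CPM and was higher in both curcumin-treated than in both diabetic libraries. That held for 3 of the 22, beside 17.9% of all genes tested, and the reverse for 1, beside 9.72%. Rxra, the partner of the PPAR receptors, had 41.9, 51.8, 148, 94.2 and 50.6 CPM and was highest in diabetes 2. Cebpb, which acts with Prdm16 in brown fat precursors, had 99.0, 62.2, 59.3, 54.1 and 105 CPM. Pparg, the adipocyte master regulator, had 47, 0, 2889, 270 and 9 counts, and was named after its values were seen.

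Dio2, which converts thyroxine to active triiodothyronine, had 0, 12, 23, 4 and 39 counts. The levels were 0, 0.471, 0.906, 0.144 and 0.919 CPM, with the highest values in diabetes 2 and curcumin-treated 2. All 4 libraries of diabetic animals exceeded control 1, where up to 0.111 CPM (3 counts) would go unseen. Against those 3 counts the mean was at least 6.21-fold higher in diabetes and at least 4.79-fold higher with curcumin. The edgeR adjusted p was 1 for both, and curcumin-treated 1 alone was only slightly above the limit. Curcumin-treated against diabetic libraries differed by −0.32 on the log2 scale (SE 1.46, edgeR adjusted p = 0.98), but 0.36 without diabetes 2, 0.48 without curcumin-treated 1 and −2.38 without curcumin-treated 2. Gm26512, antisense to Dio2 over 100 of its 5815 exon bases, had 10 counts in control 1 and 0 to 3 elsewhere.

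Other genes that handle thyroid hormone (8, all tested) were called in neither direction. Slc16a10, a thyroid hormone and aromatic amino acid transporter, had 180, 436, 52.8, 15.3 and 217 CPM. It was lowest in curcumin-treated 1 and next lowest in diabetes 2, the libraries with the largest adipocyte shares. Thra, a thyroid hormone receptor, had 39.1, 26.6, 39.6, 172 and 42.3 CPM and was higher in both curcumin-treated libraries than in the rest. Both curcumin-treated libraries were above both diabetic ones for 2 of the 8, beside 17.9% of all genes tested. They were below for 1, beside 9.72%. Of the 8, 3 were fitted higher and 5 lower with curcumin against diabetes, with a median log2 fold change of −0.364.

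Elovl3, the brown fat elongase of very long chain fatty acids, had 1, 0, 39, 4 and 1 counts. The levels were 0.037, 0, 1.54, 0.144 and 0.0236 CPM, so diabetes 2 held nearly all of it and the groups overlapped. The diabetic mean rested on diabetes 2 alone and the control on a single count. Against control 1 the log2 fold change was 4.45 (SE 3.38) in diabetes and 1.09 (SE 3.40) with curcumin, both at edgeR adjusted p = 1, and the second was −0.36 without curcumin-treated 1. The ratios of the means to the control were 20.8 (3.73 to 820.2) and 2.26 (0.406 to 89.3), with 95% intervals that cover the control count's error only. Curcumin-treated against diabetic libraries gave −3.36 on the log2 scale (SE 2.27, edgeR adjusted p = 0.852), and Elovl3 did not pass the low-count filter without diabetes 2. Per 100000 adipocyte marker counts Elovl3 had 7.04 (0.178 to 39.2) in control 1, 5.83 (4.14 to 7.96) in diabetes 2, 3.98 (1.08 to 10.2) in curcumin-treated 1 and 13.0 (0.329 to 72.4) in curcumin-treated 2. These 4 intervals overlap one another, and diabetes 1 had no counts. Pitx3, which shares 10 of the 1975 exon bases on the opposite strand, had 22 counts in diabetes 2 and at most 13 elsewhere.

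The remaining elongases (6, all tested) were called in neither direction and divided by library. Elovl6, which lengthens palmitate, had 236, 261, 31.2, 42.8 and 224 CPM. Elovl5, which acts on polyunsaturated fatty acids, had 52.5, 46.0, 88.6, 65.8 and 50.6 CPM, and Elovl1, for saturated very long chains, 31.3, 22.2, 88.9, 71.0 and 29.2 CPM. Elovl5 and Elovl1 were thus highest, and Elovl6 lowest, in diabetes 2 and curcumin-treated 1. Elovl2 and Elovl4, named after their values were seen, had 4 and 14 counts in diabetes 2 against 1303 and 1402 in control 1. With curcumin against diabetes, 3 were fitted higher and 3 lower, with a median of −0.124.

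Across the 8 genes none was called in any comparison. With edgeR's quasi-likelihood test and a threshold of 0.05 on the adjusted p, 0% of the 29855 genes tested were called for curcumin-treated against diabetes, 0% for diabetes against control and 0% for curcumin-treated against control. At an unadjusted p under 0.05 there were 696, 440 and 112 genes, none of them among the 8. DESeq2 called 95, 58 and 77 genes and limma-voom 0 in each, again with none of the 8, although DESeq2 gave Ucp1, Dio2 and Elovl3 no adjusted p in the first 2 comparisons.

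Between the treated and untreated diabetic libraries, 2 of the 8 genes (Ucp2 and Ppargc1a) had both curcumin-treated libraries below both diabetic libraries, a pattern held by 9.72% of all genes tested. None had both above, a pattern of 17.9% of genes. Of the 8, 3 were fitted higher and 5 lower, with a median log2 fold change of −0.653. Both diabetic libraries were above control 1 for 2 of the 8 (Ucp2 and Dio2, against 17.3% of all genes) and below it for none (against 34.5%). Here 6 were fitted higher and 2 lower, with a median of 0.609 that is the same with Dio2 at its lower bound, beside 0.0702 over all genes. Both curcumin-treated libraries were below control 1 for 3 (Ucp2, Ppargc1a and Prdm16, against 34% of all genes) and above it for 1 (Dio2, against 24.6%). In that comparison 5 were fitted higher and 3 lower, with a median of 0.741, likewise the same with Dio2 at its bound, beside 0.166 over all genes. The comparisons share libraries, so they are not independent of one another.

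On levels scaled by TMM, edgeR's correction for composition, Ucp2 and Ppargc1a again were the ones lower in both curcumin-treated than in both diabetic libraries. On that scale Ucp2 in curcumin-treated 2 was 544.6 CPM against 540.8 in control 1, so it no longer was lower with curcumin than in the control, while Ucp3 became higher. Ppargc1a then was also higher in both diabetic libraries than in control 1.

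**Figure D3:**
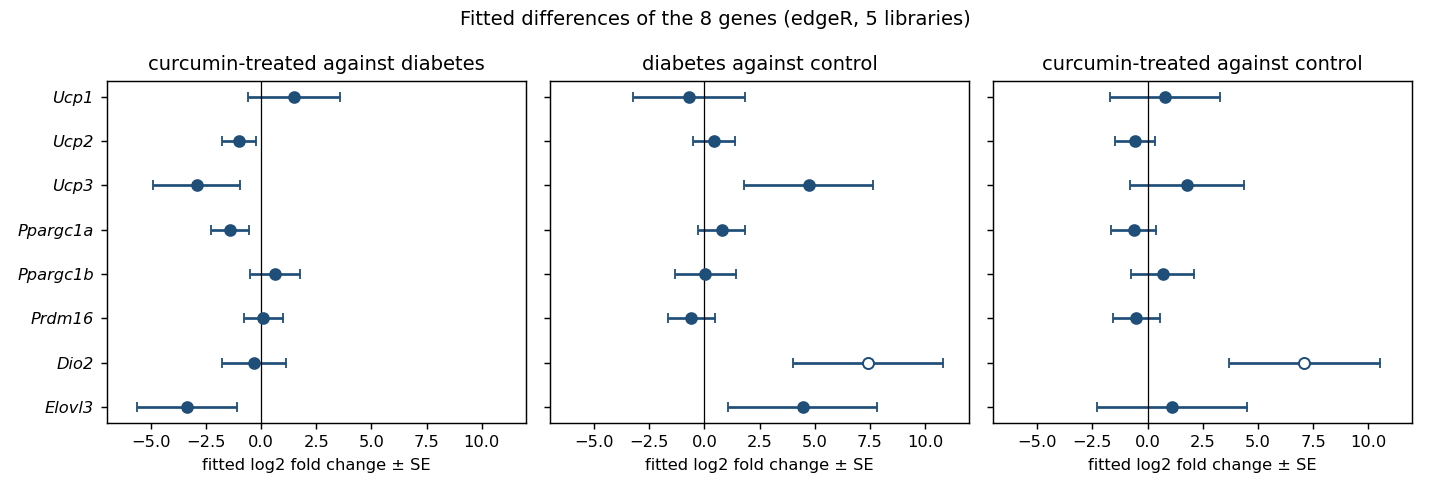
Fitted log2 fold changes of the 8 genes in the 3 comparisons, with bars of 1 SE from edgeR's quasi-likelihood fit. Hollow Dio2 points, against a control at 0 counts, depend on the prior count and are no estimate of size. No gene passed the threshold in any panel.

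The genes nearest to a member in their pattern were sought by the root mean square distance of centred log2 CPM over the 5 libraries, for the 5 members with at least 100 counts in all. Nearest to Ucp3 was Me1, the malic enzyme that supplies NADPH for fat synthesis, at a distance of 0.0851 beside a median of 2.22 over all genes. Me1 had 12.5, 10.5, 406, 59.3 and 10.04 CPM. Serpina3b and CT030642.2 followed at 0.0874 and 0.0896. Nearest to Ucp2 were Tanc1 (0.122), Pole (0.141) and Zfp991 (0.154), and nearest to Ppargc1a were Gm46367 (0.109), Gm43858 (0.149) and Gm12499 (0.159). Ppargc1b was nearest to Tnfrsf21 (0.0993), Scamp5 (0.109) and Orai2 (0.115), and Prdm16 to 4933440N22Rik (0.0579), Dmc1 (0.0844) and Stk39 (0.0915). Among the 8 themselves the closest pair was Ucp3 and Elovl3 (0.506), then Ucp2 and Ppargc1a (0.611), and the most distant was Ucp3 and Prdm16 (2.91). With 5 libraries, many genes lie near any pattern.

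**Figure D4:**
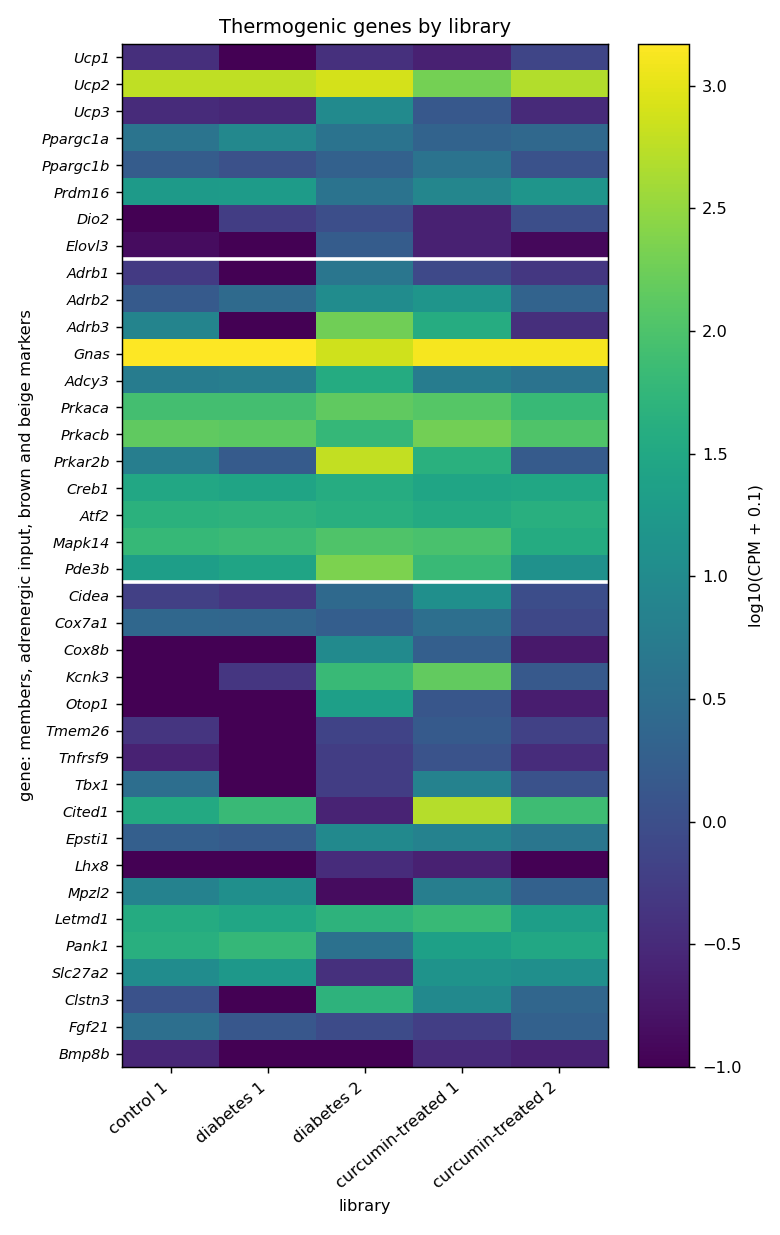
CPM of the 8 genes, the adrenergic input genes and the brown and beige fat markers (rows) in the 5 libraries (columns). Colour gives the level on a log scale with a small constant added, not centred by gene. Within their own rows, Ucp3 and Elovl3 are highest in diabetes 2, where Prdm16 is lowest. Ppargc1a and Ppargc1b are at opposite ends of their rows in diabetes 1 and curcumin-treated 1.

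The adrenergic input that drives Ucp1 and Dio2 (12 genes from receptor to transcription factor) was called in neither direction. Gnas, the stimulatory G protein, had 1479, 1428, 750.7, 1282 and 1279 CPM, and Prkacb, a catalytic subunit of protein kinase A, 142, 134, 60.2, 189.7 and 103 CPM. Both were lowest in diabetes 2. Prkar2b, the regulatory subunit typical of fat, had 5.88, 1.45, 623, 44.4 and 1.49 CPM, and Adrb3, the fat beta-adrenergic receptor, 205, 0, 4631, 1059 and 11 counts. Adrb3 was named after its values were seen. Both ran from diabetes 2 through curcumin-treated 1, control 1 and curcumin-treated 2 down to diabetes 1, the order of the adipocyte share. With curcumin against diabetes, 3 genes of this list were fitted higher and 9 lower, with a median log2 fold change of −0.429, beside 0.0518 over all genes tested. The median for diabetes against control was 1.42, beside 0.0702. Both diabetic libraries were above control 1 for 4 of the 12, beside 17.3% of all genes tested, and below it for 2, beside 34.5%. Of the diabetic libraries, only diabetes 2 exceeded control 1 in Adrb3 and Prkar2b. Of the 12, 8 were highest in diabetes 2, beside 20.7% of all genes with counts enough to compare.

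Brown and beige fat markers (16 of 18 tested) were called in neither direction. Cited1, a beige fat marker, had 34.5, 67.9, 0.158, 499 and 75.0 CPM, higher in both curcumin-treated than in both diabetic libraries. This pattern was held by 2 of the 16, beside 17.9% of all genes tested, and the opposite one by 0, beside 9.72%. In diabetes 2, with the largest adipocyte share, Cited1 had 4 counts. Kcnk3, a potassium channel of brown fat, had 0, 0.354, 67.6, 145 and 1.34 CPM, and Letmd1, a mitochondrial protein of brown fat, 36.7, 29.5, 49.4, 63.6 and 21.4 CPM. Cited1, Kcnk3 and Letmd1 were highest in curcumin-treated 1, the library in which smooth muscle genes took 4.48% of counts, and the part of smooth muscle was not tested. With curcumin against diabetes 9 were fitted higher and 7 lower, with a median of 0.148.

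Heat can also be made without Ucp1 by cycling calcium or creatine phosphate. Of that list, 10 of 12 genes were tested and called in neither direction. Ckb, the creatine kinase of creatine cycling, had 145, 164, 148, 2546 and 186 CPM, and Atp2a2, the calcium pump of the endoplasmic reticulum, 246, 366, 136, 1386 and 225 CPM. Both were far higher in curcumin-treated 1 than elsewhere, again the library rich in smooth muscle genes. Gamt, which makes creatine, had 257, 214.5, 88.9, 45.3 and 405 CPM, with curcumin-treated 1 lowest and curcumin-treated 2 highest. With curcumin against diabetes 9 were fitted higher and 1 lower, with a median log2 fold change of 0.642, beside 0.0518 over all genes tested. Both curcumin-treated libraries were above both diabetic ones for 1 of the 10 (Ckb), beside 17.9% of all genes tested. They were below for 0, beside 9.72%. The list of 12 took 0.415% of counts in curcumin-treated 1 and 0.0471% to 0.119% in the other libraries.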

How the data were processed

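Per the labels' protocols, poly-A libraries were prepared with a stranded kit and sequenced from both ends. The table deposited by the authors holds raw counts, 1 per gene and library, with no normalisation. FastQC, featureCounts and GRCm39 are named in the submitters' processing notes. Aligner, annotation release and strand setting: not given in the sources used here. Reads of overlapping antisense genes therefore cannot be assigned with certainty.

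Symbols were matched by gene ID for 51486 of 78334 genes (65.7%). CPM used library totals. All 5 libraries entered a single model (filterByExpr, TMM, robust quasi-likelihood test with the newer dispersion method, edgeR 4.0.16, R 4.3.3, two-sided, Benjamini-Hochberg threshold 0.05), with 29855 genes, 2 residual degrees of freedom and a biological coefficient of variation of 1.07. The single control was taken to have the spread of the replicated groups. DESeq2 1.42.0, limma-voom 3.58.1, other scalings, filters, a replicate block and leaving out libraries were alternatives. The test was checked on simulated counts, where it found most changed genes at a low spread and none at a spread close to that of these libraries. Poisson intervals were exact, at 95%, and shares of counts have 95% Wilson intervals where single libraries are named. Exon lengths and overlaps came from GENCODE M21 on GRCm38, and no coordinates of that build were joined to the counts.

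The 8 genes, the 7 pathway lists and the 10 marker lists were chosen with earlier results of these data known. Named were all 8 genes, the 3 most abundant tested genes of each list, and the 3 genes nearest in pattern to each member with at least 100 counts. A gene that this rule names is not reported here. Others are marked as named after their values were seen or belong to the marker lists. The libraries with the same number were not tied to 1 animal by any label.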

Additional observations from a re-analysis of the deposited data

How the results depend on the processing

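No gene among the 8 was called under any alternative, and the edgeR and limma-voom counts of called genes were 0 under every setting, including each left-out library (range 0 to 0 for each comparison). DESeq2 called 95 genes for curcumin-treated against diabetes, 58 for diabetes against control and 77 for curcumin-treated against control, and the cause was not tested. Ppargc1a kept the sign of its log2 fold change in all 38 alternatives. In the comparisons with curcumin-treated libraries, leaving out a library could not change that sign, because the groups did not overlap. Those refits are therefore no added support. For diabetes against control, Ppargc1b turned to −0.133 with library totals alone and −0.0746 with limma-voom, and without a library ranged from −0.619 to 0.49. There Ucp1 ranged from −5.92 to 0.324, Ucp3 from −0.133 to 5.69 and Prdm16 from −2.04 to 0.101. The −5.92 depends on the prior count, because diabetes 1, left alone in its group, had 0 Ucp1 counts. For curcumin-treated against control, the ranges without a library were −1.52 to 0.00656 for Ucp2, −0.377 to 1.26 for Ppargc1b and −0.361 to 1.84 for Elovl3. For curcumin-treated against diabetes they were −4.55 to 1.92 for Ucp3, −0.607 to 1.53 for Prdm16, −2.38 to 0.478 for Dio2 and −0.419 to 1.289 for Ppargc1b. With the replicate number as a block, 0 genes were called, Ucp2 turned to −0.126 for diabetes against control and Ucp1 to −1.25 for curcumin-treated against control. Same-numbered diabetic and curcumin-treated libraries deviated from their group means in opposite directions (correlation −0.41 over 29855 genes), and a crossed pairing, chosen after seeing the data, also called 0 genes. Removing 210 genes of other tissues and of highest abundance raised Ucp2 in control 1 to 866 CPM and in diabetes to 1021 CPM. Ucp1, Dio2 and Elovl3 had few counts and did not pass the filter in some settings. Whether depth or a low share of the RNA limits them was not tested.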

Other observations

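Ucp1 and Dio2 were both highest in curcumin-treated 2, where the adipocyte share was 0.0181%. Zic1, a transcription factor of brown fat precursors and of other lineages, was also highest there, with 136 counts against 5 in curcumin-treated 1 and 0 in the other libraries. Myod1, the regulator of the skeletal muscle lineage, had 6.58 CPM in curcumin-treated 2, 0.144 in curcumin-treated 1 and 0 in the other libraries. Of the skeletal muscle list, Myh1, Myh2, Myh4, Ttn and Tnni2 were also highest in curcumin-treated 2. Acta1, Ckm, Tnnt3 and Casq1 were highest in curcumin-treated 1, Mylpf in control 1 and Myh7 in diabetes 1. That list took 0.0155% of counts in curcumin-treated 2 and 0.163% in curcumin-treated 1. Ebf2, from the list of thermogenic transcription genes, had 1 count in curcumin-treated 2 and 421 in diabetes 2. The part of muscle was not tested. Of the genes with counts enough to compare, 16% (5514 of 34387) were highest in curcumin-treated 2, 22.6% in curcumin-treated 1 and 20.7% in diabetes 2. Of the 18 brown and beige fat markers, 0 were highest in curcumin-treated 2, 9 in curcumin-treated 1 and 5 in diabetes 2. The genes named here were picked after their values were seen, and no test was made.

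Cox8b, a respiratory chain subunit of brown fat and muscle, and Otop1, a proton channel high in brown fat, had 0 counts in control 1 and diabetes 1. They had 247 and 564 counts in diabetes 2, 48 and 33 in curcumin-treated 1, and 4 and 5 in curcumin-treated 2. Per 100000 adipocyte marker counts, Cox8b had 36.9, 47.7 and 52.0 in those 3 libraries and Otop1 84.3, 32.8 and 65.0, while Ucp1 had 1.05, 3.98 and 351.1. The Cox8b and Otop1 ratios in curcumin-treated 2 rest on 4 and 5 counts. Prdm16 on the same base ranged from 14.5 in diabetes 2 to 13830 in diabetes 1, where Pnpla2 alone made up 53.6% of the marker counts. Cidea, a lipid droplet protein of brown fat, was highest in curcumin-treated 1 with 330 counts, against 66 in diabetes 2 and 9 to 37 elsewhere. All of these were named after their values were seen.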
